A study of Homo sapiens with 12 samples.

Results

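The BCL2 family of apoptosis regulators was examined in H1299 cells through 10 genes chosen by name for their family membership, with earlier results of these data known. They are the guards BCL2 (ENSG00000171791), BCL2L1 (ENSG00000171552) and MCL1 (ENSG00000143384) and the pore-forming effector BAX (ENSG00000087088). The BH3-only genes are BID (ENSG00000015475), BCL2L11 (ENSG00000153094), PMAIP1 (ENSG00000141682), BBC3 (ENSG00000105327), BAD (ENSG00000002330) and BMF (ENSG00000104081). The table lists 59577 genes. All 10 reached a mean of 1 TPM (transcript abundance scaled for gene length and to a common total) over the samples and were tested. The second effector gene, BAK1, was left out because its deposited values disagree with each other. H1299 cells are a long-established line of human non-small cell lung carcinoma. RNA came from 6 samples kept at 21% O2, 5% CO2 and 74% N2 (normoxia) and 6 samples kept at 60% O2, 5% CO2 and 35% N2 (hyperoxia) for 24 h, with no other difference in treatment or genotype stated. The comparison asks which of these regulators differ in RNA level at the higher oxygen level.

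Proteins of this family decide whether the outer mitochondrial membrane stays closed. Guards bind and hold both the effectors and the BH3-only proteins; BH3-only proteins respond to stress, occupy the guards or activate the effectors; active BAX then opens the membrane and releases cytochrome c, which starts the caspase cascade. Lung tumour cells are among those known to depend on MCL1 and BCL-XL for survival. Many of the proteins are controlled by cleavage, phosphorylation or breakdown, none of which RNA levels show.

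What makes the family 1 group is the BH3 motif, a short helix whose core runs from a leucine over 3 variable residues to a small residue and an aspartate. The codons of that core were searched in frame in the principal GENCODE 29 transcript (GRCh38) of each member, and each of the 10 held a match. BID held 2, of which the later is shown. Each line gives 36 coding bases, with the leucine codon and the small-residue and aspartate codons in capitals.
BCL2: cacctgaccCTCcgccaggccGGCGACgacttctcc
BCL2L1: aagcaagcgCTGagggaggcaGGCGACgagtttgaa
MCL1: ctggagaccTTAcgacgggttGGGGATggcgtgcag
BAX: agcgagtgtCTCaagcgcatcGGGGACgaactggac
BID: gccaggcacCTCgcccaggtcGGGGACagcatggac
BCL2L11: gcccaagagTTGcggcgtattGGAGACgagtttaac
PMAIP1: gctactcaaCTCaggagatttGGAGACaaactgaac
BBC3: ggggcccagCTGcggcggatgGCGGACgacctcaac
BAD: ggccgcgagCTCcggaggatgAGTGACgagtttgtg
BMF: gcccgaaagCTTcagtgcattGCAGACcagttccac
The small residue is encoded by a glycine codon in the 3 guards, BAX, BID, BCL2L11 and PMAIP1, by an alanine codon in BBC3 and BMF, and by a serine codon in BAD. BCL2L11 and BMF were the most alike pair, with 25 of the 36 bases identical. The lowest count of any pair was 12 of the 36 bases, for MCL1 with BAD, with BMF and with PMAIP1 and for BCL2 with PMAIP1. The BID stretch lies in a coding exon at chr22:17739418-17739453 on the minus strand, inside the gene at chr22:17734138-17774770. The BBC3 stretch lies in a coding exon at chr19:47226582-47226617 on the minus strand, inside the gene at chr19:47220822-47232766. The others also lie within 1 coding exon each: on the minus strand BCL2 at chr18:63318352-63318387, BCL2L1 at chr20:31721925-31721960, MCL1 at chr1:150578868-150578903, BAD at chr11:64271625-64271660 and BMF at chr15:40104198-40104233, and on the plus strand BAX at chr19:48955778-48955813, BCL2L11 at chr2:111150094-111150129 and PMAIP1 at chr18:59902664-59902699.

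Summed TPM ranged from 996138 to 998797 over the samples. The depth behind them is unknown because TPM does not retain it. Genes at 1 TPM or more numbered 14275 to 14635. RNAs of mitochondrial DNA took 7.22% to 8.19% of the TPM in normoxia and 6.92% to 7.57% in hyperoxia (exact two-sided permutation test, adjusted p = 0.242 over 4 measures). On the first principal component (20.7% of the variance of log2(TPM + 1)), normoxia replicates 1 to 3 stood apart from normoxia replicates 4 to 6 and lay between them and the hyperoxia samples; the labels name no batch. The mitochondrial share was 7.38% to 8.19% in normoxia replicates 1 to 3 and 7.22% to 7.31% in normoxia replicates 4 to 6. Keratins KRT8 (551 to 625 TPM) and KRT18 (891 to 995 TPM) were high in the cells labelled lung adenocarcinoma. The keratin KRT7 measured only 2.37 to 5.03 TPM, and KRT19 did not exceed 0.72 TPM. Of the mesenchymal genes, VIM measured 2750 to 3523 TPM, CDH2 14.1 to 19.09 TPM and FN1 11.46 to 18.15 TPM. The adenocarcinoma markers NKX2-1 and NAPSA stayed at or below 0.78 TPM, EPCAM and CDH1 at or below 0.28 TPM, and SFTPC and SFTPA1 were listed at 0 in every sample. Of 6 immune markers the leukocyte gene PTPRC did not exceed 0.03 TPM and CD3E was at 0, while CD68, a lysosomal protein used as a macrophage marker, measured 39.2 to 50.8 TPM and alone reached 1 TPM. Separate cultures are not stated for the 6 samples of a group; p-values therefore describe the spread among these samples, which could be technical.

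The guards MCL1 and BCL2L1 were the most abundant members and BCL2 was among the least. MCL1, a short-lived guard, averaged 145 ± 7.83 TPM (SD, n = 12), and BCL2L1, which encodes BCL-XL, averaged 105.5 ± 5.62 TPM (SD, n = 12). BCL2, the founding guard, averaged 1.48 ± 0.21 TPM (SD, n = 12), so the mean of MCL1 was 97.4 times and that of BCL2L1 71.1 times its mean. Below the 2 leading guards came BAD at 75.9, BAX at 58.1, BID at 38.5, PMAIP1 at 21.8, BBC3 at 5.50, BCL2L11 at 4.15, BCL2 at 1.48 and BMF at 1.27 TPM as means of the 12 samples. MCL1 exceeded BCL2L1, and BCL2L1 exceeded BAD, in all 12 samples without overlap of their ranges. Ranges overlapped between neighbours only for BAD and BAX, for BBC3 and BCL2L11, and for BCL2 and BMF. BAD was above BAX within each of the 12 samples, BBC3 above BCL2L11 in 11 of 12, and BCL2 above BMF in 8 of 12. As gene-level values they do not separate the long and short splice forms of BCL2L1, MCL1 or BCL2L11, which differ in activity.

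**Figure D1:**
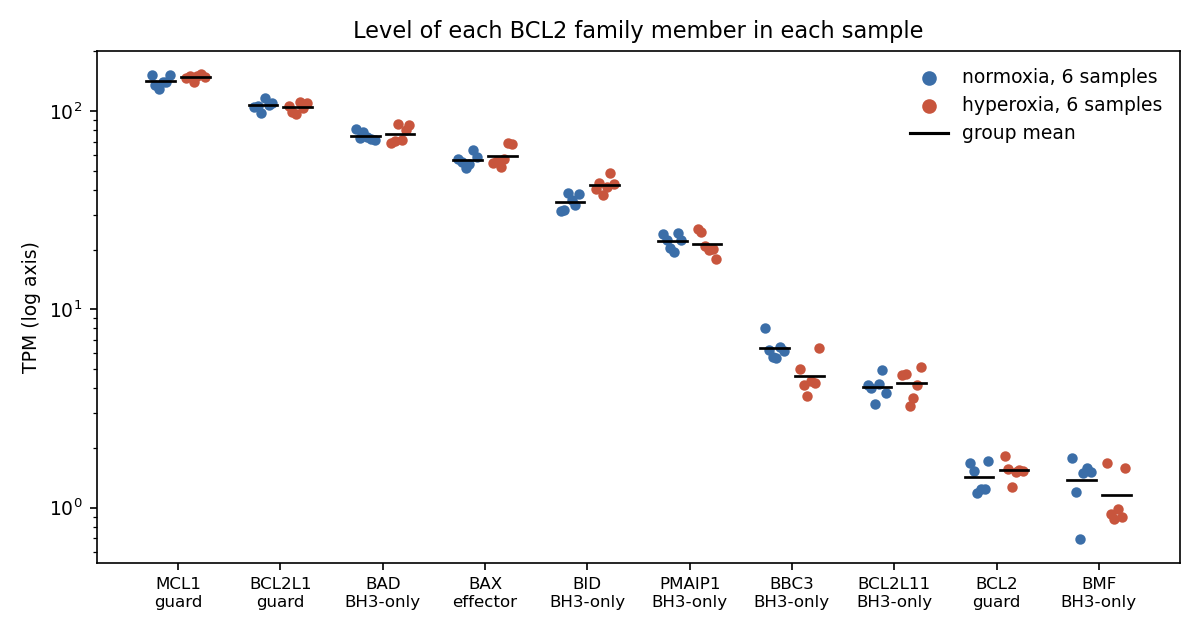
TPM of each member in each sample (log axis), ordered by mean, with normoxia in blue, hyperoxia in red and group means as bars. MCL1 and BCL2L1 lie above 97 TPM in every sample and BCL2 and BMF below 2 TPM; BID is shifted up and BBC3 down in hyperoxia.

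At 60% oxygen BID rose and BBC3 fell, and the other 8 members did not pass the test. Of the 10 members 2 were called, 1 higher and 1 lower, against 17.3% of the 14520 tested genes called (11.7% higher and 5.63% lower), so the members' count is near the background. With median-of-ratios scaling the background held 1279 genes higher and 1277 lower, against 1698 and 818 as deposited. The median difference of the members on the log2(TPM + 1) scale was 0.04, beside 0.03 for all tested genes.

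BID encodes the BH3-only protein that caspase-8 cleaves, which links death receptors at the cell surface to the mitochondrion. Its level ran from 31.2 over a median of 34.6 to 38.5 TPM in normoxia, and from 37.6 over a median of 42.1 to 48.6 TPM in hyperoxia. In 5 of the 6 hyperoxia samples BID lay above every normoxia sample; hyperoxia replicate 3, at 37.6 TPM, lay below normoxia replicates 3 and 6, so the groups overlapped. The mean went from 34.7 ± 3.15 to 42.3 ± 3.64 TPM (SD, n = 6 each), 21.8% higher. The difference was 0.28 on the log2(TPM + 1) scale (SE 0.07, 95% interval 0.13 to 0.42, limma, Benjamini-Hochberg adjusted p = 0.0127).

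BBC3 encodes PUMA, a BH3-only protein that binds all the guards. Its level ran from 5.68 over a median of 6.18 to 8.01 TPM in normoxia, and from 3.65 over a median of 4.29 to 6.35 TPM in hyperoxia. Hyperoxia lay below every normoxia sample in 5 of 6 cases; hyperoxia replicate 6 reached 6.35 TPM, within the normoxia range. The mean went from 6.38 ± 0.85 to 4.61 ± 0.95 TPM (SD, n = 6 each). BBC3 fell by 0.40 on the log2(TPM + 1) scale (SE 0.11, 95% interval -0.64 to -0.17, limma, Benjamini-Hochberg adjusted p = 0.0216). The ratio of the group means of BID and BBC3 was 5.44 in normoxia and 9.17 in hyperoxia, a description of the same values with no test of its own. In these bulk samples a lower level in every cell and the loss of some cells cannot be told apart.

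**Figure D2:**
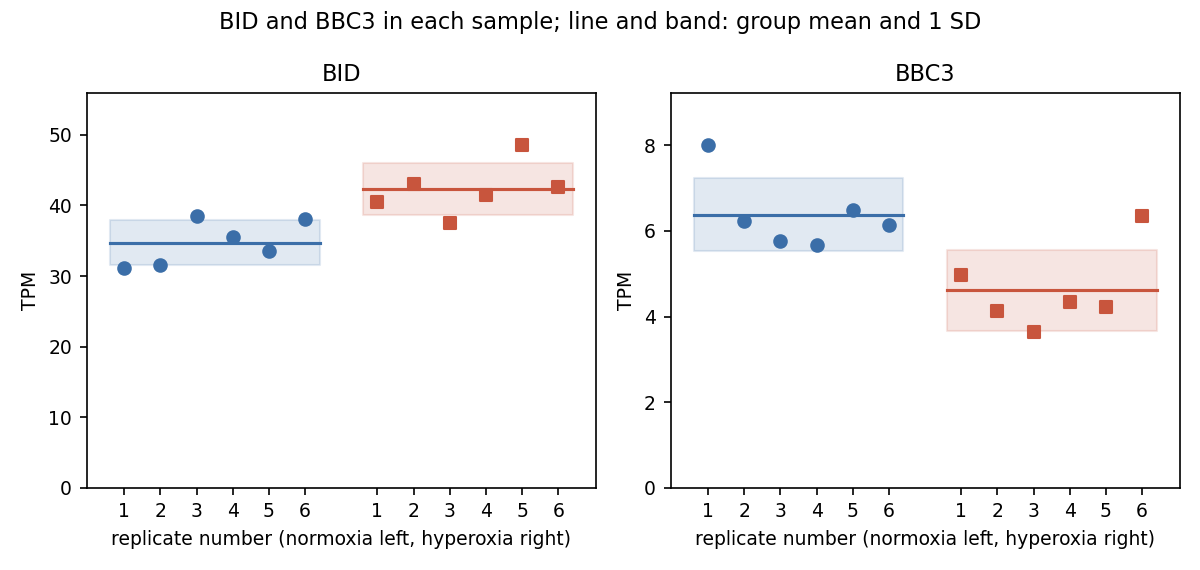
TPM of BID (left) and BBC3 (right) in each of the 6 normoxia samples (blue circles) and 6 hyperoxia samples (red squares), with the group mean as a line and 1 SD as a band; both axes start at 0. The BID means are 34.7 and 42.3 TPM and the BBC3 means 6.38 and 4.61 TPM; hyperoxia replicate 3 of BID and hyperoxia replicate 6 of BBC3 lie within the normoxia range.

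Both calls ended under some alternatives. Against normoxia replicates 1 to 3 alone the BID difference was 0.32 (adjusted p = 0.0474), and against normoxia replicates 4 to 6 alone it was 0.24 (adjusted p = 0.0811). For BBC3 the same fits gave -0.45 (adjusted p = 0.0864) and -0.35 (adjusted p = 0.137). An exact rank-sum test over all genes gave adjusted p = 0.0559 for BID and 0.112 for BBC3 (unadjusted exact p = 0.00866 and 0.026). Without a filter on low values the adjusted p of BBC3 was 0.0589. Leaving out any single sample kept both calls, with adjusted p between 0.00938 and 0.0311 for BID and between 0.00379 and 0.0484 for BBC3. The smallest of these for BBC3 was without hyperoxia replicate 6, with a difference of -0.48.

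**Figure D3:**
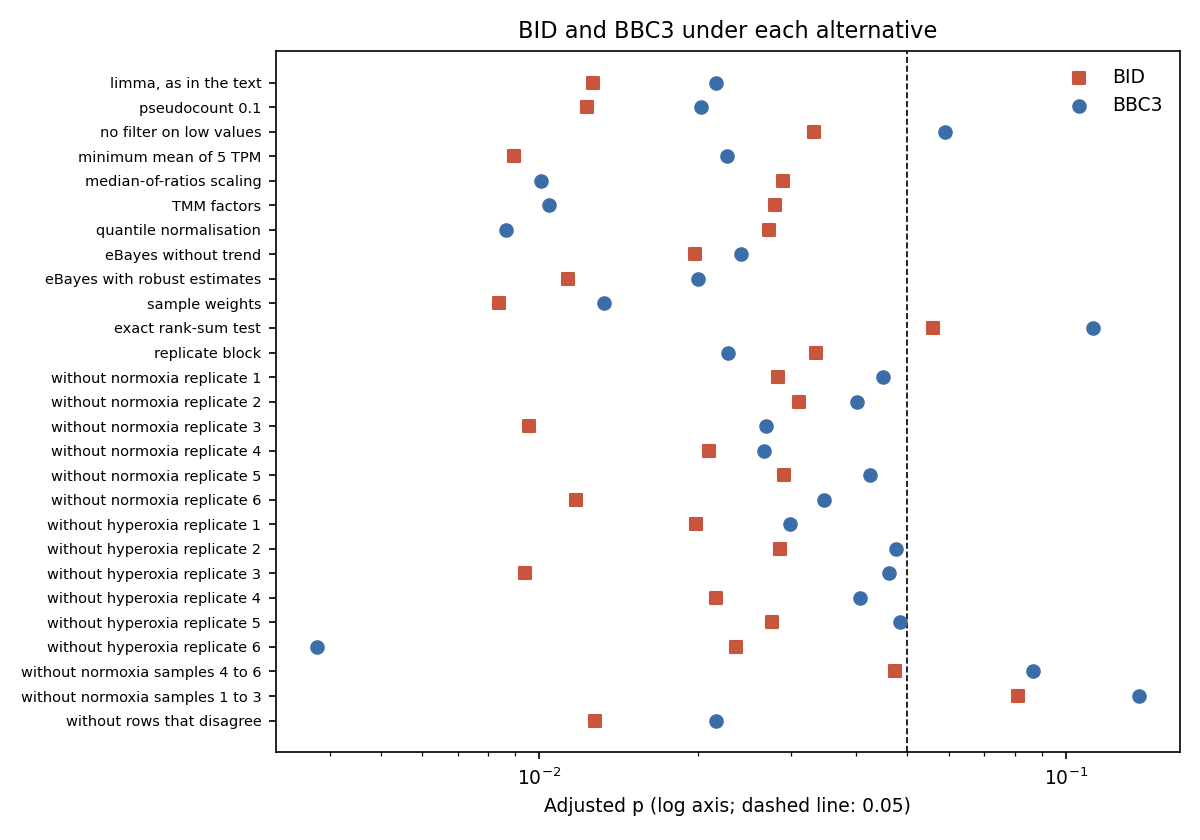
Adjusted p (log axis) of BID (red squares) and BBC3 (blue circles) in the limma fit of the text and under each alternative, with a dashed line at 0.05. BID crosses the line under the exact rank-sum test and without normoxia samples 1 to 3; BBC3 crosses under these, without normoxia samples 4 to 6 and without the filter on low values.

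None of the guards passed the test. MCL1 ran from 129 over a median of 139.9 to 152 TPM in normoxia and from 139.5 over a median of 148.9 to 153.5 TPM in hyperoxia. All but 1 of the hyperoxia samples lay above the normoxia mean, and the ranges overlapped from 139.5 to 152 TPM. Its difference was 0.07 (SE 0.04, adjusted p = 0.296), with a 95% interval of 0.985 to 1.12 as a fold of TPM + 1. BCL2L1 ran from 97.9 over a median of 106.0 to 115.8 TPM in normoxia and from 97.0 over a median of 104.8 to 110.6 TPM in hyperoxia. The difference of BCL2L1 was -0.03 (SE 0.04, adjusted p = 0.647; interval 0.913 to 1.04 as a fold), and its sign turned without normoxia replicates 4 to 6 (0.02). BCL2 measured 1.18 to 1.71 TPM (median 1.385) in normoxia and 1.27 to 1.82 TPM (median 1.535) in hyperoxia. Its ranges overlapped over most of their width, at a difference of 0.07 (SE 0.10, adjusted p = 0.704; interval 0.903 to 1.21 as a fold). Summed over the 3 guards, the level ran from 228.2 to 263.6 TPM in normoxia (mean 249) and from 237.8 to 261.6 TPM in hyperoxia (mean 254). MCL1 made up 56.6% ± 1.51 and 58.3% ± 1.19 of it (SD, n = 6 each). The 6 BH3-only genes summed to 143.6 ± 4.19 TPM in normoxia and 150.7 ± 6.57 TPM in hyperoxia (SD, n = 6 each), and the ranges of both sums overlapped. Much of this BH3-only sum was BAD. Without BAD it was 68.7 ± 2.50 TPM in normoxia and 73.8 ± 4.71 TPM in hyperoxia (SD, n = 6 each), again with overlap.

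BAX, the effector that forms the membrane pore, ran from 51.6 over a median of 56.4 to 63.5 TPM in normoxia and from 51.9 over a median of 56.8 to 69.3 TPM in hyperoxia. Hyperoxia replicates 5 and 6, at 69.3 and 67.9 TPM, were above every normoxia sample, and the other 4 were within the normoxia range. The difference was 0.06 (SE 0.07, adjusted p = 0.604), with a 95% interval of 0.936 to 1.17 as a fold of TPM + 1.

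Among the other BH3-only genes 4 did not pass. PMAIP1 encodes NOXA, which preferentially binds MCL1 and marks it for breakdown. It ran from 19.4 over a median of 22.3 to 24.3 TPM in normoxia and from 17.9 over a median of 20.5 to 25.5 TPM in hyperoxia, with hyperoxia samples at both extremes. Its difference was -0.05 (SE 0.08, adjusted p = 0.742; interval 0.853 to 1.10 as a fold). The level of PMAIP1 was 15.7% ± 1.22 of that of MCL1 in normoxia and 14.5% ± 2.04 in hyperoxia (SD, n = 6 each).

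BCL2L11 encodes BIM, which binds all guards and can activate BAX directly. It measured 3.34 to 4.95 TPM (median 4.07) in normoxia and 3.27 to 5.12 TPM (median 4.40) in hyperoxia. The hyperoxia samples spread beyond the normoxia range on both sides, and the difference was 0.05 (SE 0.10, adjusted p = 0.808; interval 0.886 to 1.20 as a fold). Its sign turned without normoxia replicates 1 to 3 (-0.02) and without hyperoxia replicate 6 (-0.00086). The noncoding gene MIR4435-2HG lies on the opposite strand, shares 727 exon bases with BCL2L11 (10.9% of its exon bases in GENCODE 29), and rose from 120.3 ± 4.28 to 140.2 ± 7.66 TPM (SD, n = 6 each; adjusted p = 0.00257). Whether the counting used strand is not given in the sources used here, and the part of MIR4435-2HG reads in the BCL2L11 values was not tested. BMF, whose protein is held on the cytoskeleton through a dynein light chain, measured 0.69 to 1.78 TPM in normoxia and 0.88 to 1.67 TPM in hyperoxia. Of the hyperoxia samples 4 lay between 0.88 and 0.98 TPM and the other two at 1.59 and 1.67 TPM; the difference was -0.14 (SE 0.15, adjusted p = 0.576; interval 0.728 to 1.13 as a fold).

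BAD encodes a BH3-only protein that growth factor signalling keeps inactive by phosphorylation and binding to 14-3-3 proteins. Its columns ran from 71.2 over a median of 73.7 to 80.9 TPM in normoxia and from 69.0 over a median of 75.7 to 86.4 TPM in hyperoxia. Hyperoxia replicates 3 and 6 were above every normoxia sample and hyperoxia replicates 1 and 2 below every one. The difference was 0.03 (SE 0.06, adjusted p = 0.75; interval 0.936 to 1.12 as a fold), and -0.01 without normoxia replicates 4 to 6. In the authors' deposited table BAD has a fold of 1.87, while the ratio of the group means in the same table is 1.03 and the authors' adjusted p is 0.963. BAD is also among the 78 genes whose deposited values disagree, in its case because the deposited log2 is not the log2 of the deposited fold within 1e-06. The neighbouring gene GPR137 shares 404 exon bases with BAD on the opposite strand (23.7% of the exon bases of BAD) and had a mean of 34.9 TPM in normoxia against 41.4 TPM in hyperoxia (adjusted p = 0.0679); its part in the BAD values was not tested. For BCL2L1 the antisense gene ABALON overlaps 43.0% of the exon bases and measured 8.69 and 8.97 TPM in the 2 groups.

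**Figure D4:**
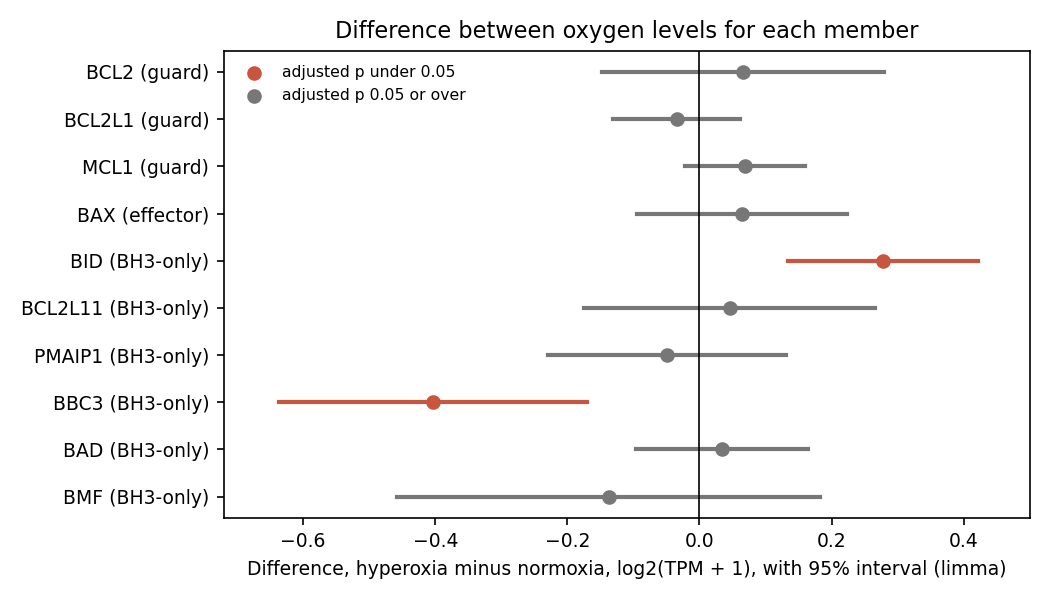
Difference between hyperoxia and normoxia on the log2(TPM + 1) scale for each member, with its 95% interval (limma), coloured where the adjusted p is under 0.05. The intervals of BID (0.13 to 0.42) and BBC3 (-0.64 to -0.17) leave out 0 and those of the other 8 members include it.

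The authors' deposited table carries its own test of the same comparison. It gives BID a fold of 1.20 (the authors' adjusted p = 0.00128) and BBC3 a fold of 0.698 (the authors' adjusted p = 2.52e-04). For BCL2L11 the authors' deposited table has a fold of 1.16 and an adjusted p of 0.0161, where the ratio of its column means is 1.04. None of the 10 members carries the authors' call of a significant change in the authors' deposited table. As BID, BBC3 and BCL2L11 have an authors' adjusted p under 0.05, that call follows another rule than this threshold alone. The limma calls used no fold minimum, so the 2 sets of calls are not alike. For BAK1, left out here, the authors' deposited table gives a hyperoxia mean of 23.9 TPM, while its 6 hyperoxia columns average 4.40 TPM; the control mean is 20.6 TPM.

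Members also varied within the groups. After removing the group means, BBC3 and BMF had a Pearson correlation of 0.72 over the 12 samples, and BCL2 and MCL1 one of 0.69. BCL2L11 followed BMF at 0.68 and BBC3 at 0.61. The most negative pair was PMAIP1 and BAD at -0.54. These are descriptions of 45 pairs from the same 12 libraries, which share their depth and composition, and BMF and BCL2 lie near 1 TPM. The genes whose log2(TPM + 1) was most like that of BID, the member with the smallest p, were DNAH14 (Pearson correlation 0.91 over the 12 samples), TIGD7 (0.91), ABCC5 (0.89), TERF2 (0.89) and WDCP (0.89). Part of this likeness is the difference between the groups. After removing group means the 5 correlations were between 0.70 and 0.82. The 5 genes were picked as the highest among the tested genes whose deposited values do not disagree, over these same 12 samples. That choice itself raises both sets of correlations, so the values within groups are no separate check.

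Other genes of the pathway were read from lists by role. The count called in each list stands against 17.3% of all tested genes called (11.7% higher and 5.63% lower). No list was tested as a set. Of 12 further BCL2-related genes 8 were tested, 2 rose and none fell, with a list median of 0.05 on the log2(TPM + 1) scale. BCL2L13, an outer-membrane protein that serves as a mitophagy receptor, rose from 42.6 ± 2.63 to 51.8 ± 2.49 TPM (SD, n = 6 each; difference 0.28, adjusted p = 0.00176). BNIP3, a mitophagy receptor with an atypical BH3 motif, rose from 33.9 ± 2.18 to 40.4 ± 2.53 TPM (SD, n = 6 each; difference 0.25, adjusted p = 0.00655). The BNIP3 call ended without normoxia replicates 1 to 3 (adjusted p = 0.0594). Neither gene's groups overlapped. A lack of overlap, here and for genes of the lists below, held for 8.78% of all tested genes. The guard BCL2A1 did not exceed 0.09 TPM and BCL2L10 was listed at 0 in every sample.

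The list for cytochrome c release and caspase activation, which includes CYCS and the VDAC channel genes, held 15 tested genes. Of these 2 were higher, 1 was lower and 12 were not called (median 0.06). BIRC5, survivin, an inhibitor-of-apoptosis family protein that also serves in mitosis, fell from 90.0 ± 5.22 to 75.6 ± 2.87 TPM (SD, n = 6 each; adjusted p = 0.00166), without overlap. The outer-membrane channel genes VDAC1 and VDAC2 rose by 0.10 and 0.17 on the log2(TPM + 1) scale (adjusted p = 0.0254 and 0.00577). With median-of-ratios scaling neither passed (adjusted p = 0.281 and 0.0733), nor with TMM factors (0.265 and 0.0677). VDAC1 also lost its call without normoxia replicate 1 (adjusted p = 0.0523), hyperoxia replicate 2 (0.0544) or hyperoxia replicate 5 (0.0537), and in eBayes without trend (0.0691). Without normoxia replicates 4 to 6 neither VDAC1 (adjusted p = 0.1) nor VDAC2 (0.0584) passed, and without normoxia replicates 1 to 3 VDAC1 did not (0.0949). The apoptosome gene APAF1 measured 9.23 and 7.87 TPM in normoxia and hyperoxia (adjusted p = 0.0875).

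In the death receptor arm, upstream of BID, 9 of 11 genes were tested, of which 1 rose, 1 fell and 7 did not pass (median 0.03). CASP8, the protease that cleaves BID, ran from 16.1 to 18.6 TPM in normoxia and from 18.6 to 22.2 TPM in hyperoxia (difference 0.19, adjusted p = 0.029). Its call was lost in 11 of 26 alternatives, among them median-of-ratios scaling (adjusted p = 0.0701) and the fits without normoxia replicate 3 (0.0532), normoxia replicate 4 (0.058), hyperoxia replicate 1 (0.0603), hyperoxia replicate 3 (0.0616) or hyperoxia replicate 5 (0.0538). FADD, the adaptor that brings CASP8 to the receptors, fell from 27.4 ± 0.68 to 24.1 ± 1.67 TPM (SD, n = 6 each; adjusted p = 0.0183), without overlap between the groups. The call of FADD ended against either set of 3 normoxia samples (adjusted p = 0.103 and 0.11). RIPK1 in this list is among the genes whose deposited values disagree.

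Of 15 binding partners and turnover factors 13 were tested, 1 rose and 1 fell (median -0.02), both of them 14-3-3 genes whose proteins hold phosphorylated BAD. YWHAG rose from 153 ± 7.17 to 172 ± 2.79 TPM and YWHAZ fell from 870 ± 25.4 to 792 ± 29.6 TPM (SD, n = 6 each; adjusted p = 0.00348 and 0.00694). The YWHAZ call ended without normoxia replicates 4 to 6 (adjusted p = 0.0645). The dynein light chain genes DYNLL1 and DYNLL2, partners of BIM and BMF, did not pass (adjusted p = 0.639 and 0.702).

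Of 12 transcription factors known to act on BH3-only genes 10 were tested, 2 rose, 1 fell and 7 did not pass (median 0.01). TFE3, a lysosomal stress factor, rose from 35.3 ± 2.54 to 45.9 ± 2.64 TPM, and JUN, a subunit of AP-1, from 38.6 ± 2.83 to 48.1 ± 3.12 TPM (SD, n = 6 each; adjusted p = 5.94e-04 and 0.00233). Groups did not overlap for either gene. ATF4, the main factor of the integrated stress response, fell from 271 ± 21.7 to 238 ± 11.0 TPM (SD, n = 6 each; adjusted p = 0.0237), with overlap, and lost its call without a filter on low values (adjusted p = 0.0607), by exact rank sums (0.0799) and without normoxia replicate 5 (0.0527) or hyperoxia replicate 2 (0.0534). It was also lost without normoxia replicates 4 to 6 (adjusted p = 0.0838) and without normoxia replicates 1 to 3 (0.069). FOXO3 measured 11.5 and 10.4 TPM (adjusted p = 0.143). The largest difference in this list, 0.40 on the log2(TPM + 1) scale, belonged to a factor that did not pass (limma, adjusted p = 0.0542). With the replicate number as a block 3 factors passed as higher, while in most other alternatives the count stayed at 2.

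**Figure D5:**
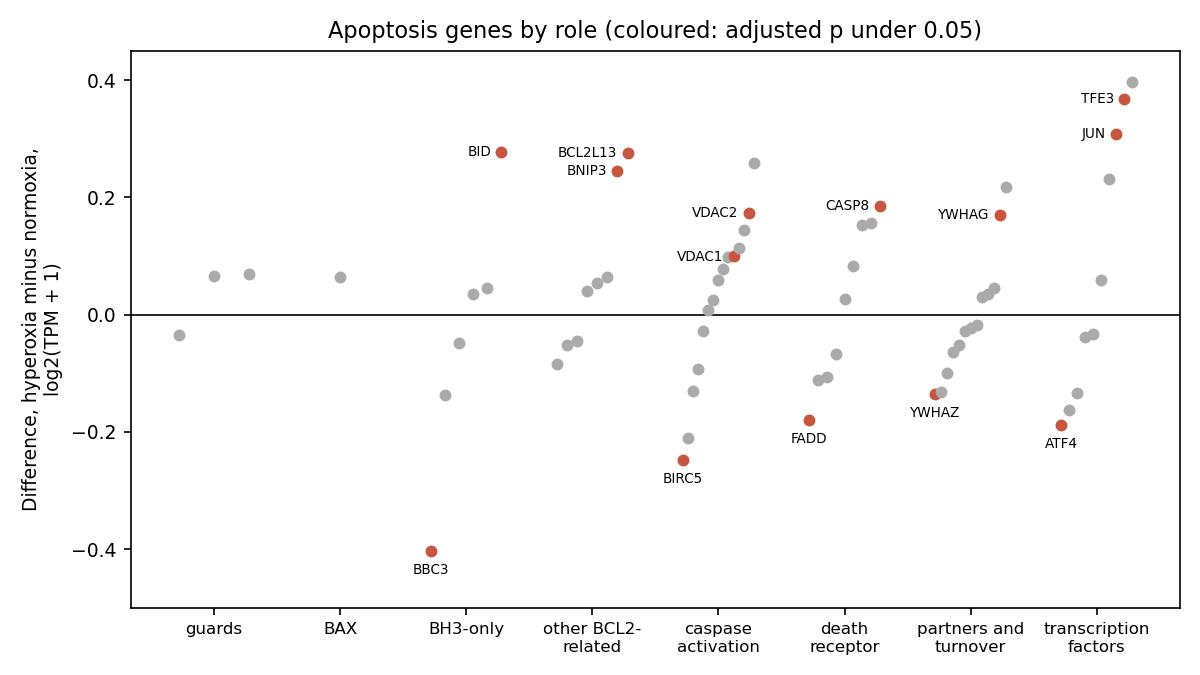
Difference between hyperoxia and normoxia on the log2(TPM + 1) scale for each tested gene, by role, with genes at an adjusted p under 0.05 coloured and named. Within the members BID is the highest (0.28) and BBC3 the lowest (-0.40), while the guards and BAX lie between -0.03 and 0.07.

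The promoter of BBC3 is shown because it is the member that fell and because the DNA letters of TFE3 and AP-1 occur in it; the motifs were chosen with results known. Motifs were searched on both strands in RefSeq promoter windows (GRCh38.p14; 250 bases before to 50 after a listed start). The letters were TGATGNAA for ATF4 with CHOP, TGACGTCA for a cAMP response element, TGANTCA for AP-1, TCACGTGA for TFE3 and TGTTTAC for FOXO factors. The 250 bases before the listed RefSeq start of BBC3 are chr19:47232668-47232917 on the minus strand. They are printed 5′ to 3′ with the TFE3 and AP-1 letters in capitals.
BBC3 promoter: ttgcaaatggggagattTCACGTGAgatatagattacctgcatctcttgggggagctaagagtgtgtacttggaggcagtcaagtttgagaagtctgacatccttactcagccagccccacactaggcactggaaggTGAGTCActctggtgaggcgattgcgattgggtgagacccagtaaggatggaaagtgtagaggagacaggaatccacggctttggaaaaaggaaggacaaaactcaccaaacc
The TFE3 letters end 226 bases before the start and the AP-1 letters 107 bases before it. Of all 35116 listed windows 0.98% hold the TFE3 letters and 7.71% the AP-1 letters. BAX has 3 matches to the TFE3 letters and BCL2L11 has 1 to the FOXO letters. The 5 windows listed for BID hold none of the 5 motifs, and the table of windows was matched by 9 members, all but MCL1. A match shows only that the letters are there.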

How the data were processed

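RNA of 12 H1299 samples was measured. The submitters' processing notes name HTSeq 0.9.1 for the authors' counts, edgeR 3.16.5 and a mouse build; the identifiers, however, are human Ensembl genes. For the aligner, annotation and TPM calculation, the sources used here give nothing. Each sample's column is TPM, per the file headers. Beside them stand the authors' own group means, a fold (linear ratio) with its log2, and a deposited p-value with its adjusted form. A TruSeq kit is named per the labels' protocols, and a directional kit of another maker with removal of ribosomal RNA in the design text.

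Groups came from the titles. Genes with a mean of at least 1 TPM (14520) were tested with limma 3.58.1 in R 4.3.3 (eBayes with trend) on log2(TPM + 1). Tests were two-sided, p-values were adjusted by Benjamini-Hochberg over these genes, and the threshold was 0.05; this scale understates changes of low genes. Deposited numbers were checked against each other: 78 rows disagree (log2 of the deposited fold off from the deposited log2 by more than 1e-06, or group means by more than 1e-04 TPM); 43 of them, BAD included, in the log2 only. They stayed in the test. Members and lists were chosen with earlier results of these data known. All members are named, and of the other lists the genes that passed; further genes with values were chosen after these were seen. The 26 alternatives were another pseudocount (0.1) and other filters, scalings, moderation, an exact rank-sum test, sample weights, the replicate number as a block, and fits without samples or without the rows that disagree. TMM factors were computed on TPM. Same-numbered samples were checked for pairing. Some genes of the lists are counted but not reported by name here.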

Additional observations from a re-analysis of the deposited data

Results flagged for a closer look

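BBC3 in normoxia replicate 1 stood at 8.01 TPM, while the other 5 normoxia samples lay between 5.68 and 6.48 TPM; its gap to the nearest sample was 0.657 of the group's range. Without this sample the BBC3 difference kept its direction and its side of the threshold. In all, 58 groups of 6 samples were examined by Dixon's criterion at 95%, and chance marks about 1 in 20 such groups.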

How the results depend on the processing

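The BID and BBC3 calls were lost in 2 and 4 of 26 alternatives, and the other 8 members passed in none. Of 256 member results under alternatives 246 kept their direction and side of the threshold, 6 lost the call and 4 turned sign: BCL2L1 at 0.018 and BAD at -0.012 without normoxia samples 4 to 6, and BCL2L11 at -0.021 without normoxia samples 1 to 3 and between -0.00086 and 0.103 when single samples were left out. The number of members that passed (2, with 1 higher and 1 lower) was 1 with no filter on low values (1 higher, 0 lower) and 1 without normoxia samples 4 to 6 (1 higher, 0 lower). It was 0 without normoxia samples 1 to 3, an alternative chosen after seeing the data, where limma gave 2 at an unadjusted p under 0.05, and 0 in the exact rank-sum test, which also gave 2 unadjusted. Over all genes 2516 were called (1698 higher, 818 lower). Without normoxia samples 4 to 6 the count was 1375 (1000 and 375), and without normoxia samples 1 to 3 it was 1231 (788 and 443); these fits have fewer samples. Lower calls numbered 1277 with median-of-ratios scaling, 1271 with TMM factors and 515 in the exact rank-sum test; the cause was not tested. Of the 12 other genes that passed, 5 kept their call in every alternative (BCL2L13, BIRC5, YWHAG, JUN and TFE3), and of 260 list counts under alternatives 20 were above and 29 below the count in the text (45 by over 1.5 times). With the replicate number as a replicate block 2545 genes and 2 members passed. Same-numbered samples had correlations of their deviations between -0.12 and 0.017, so over all tested genes no pairing by number was seen. These correlations cannot decide whether same-numbered samples shared a culture or a day, which the labels do not state. TPM keeps no depth, so no counting error is given, and BMF, near 1 TPM, has the widest 95% interval of the members.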
